A study of Mus musculus with 8 samples.

Results

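The genes examined here build and serve the inhibitory synapse that uses γ-aminobutyric acid (GABA). The genes were chosen by symbol: the enzymes that make and break down GABA, the transporters that load it into vesicles and take it back, subunits of its ionotropic (GABA-A) and metabotropic (GABA-B) receptors, the scaffold and trafficking proteins that hold the receptors at the membrane, and the chloride transporters that set the direction of GABA currents. They were 28 of the 34797 gene names in the array annotation, represented by 47 of the 55681 probes on the array that are not control spots, and each gene was followed by its brightest probe.

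The tissue was the medial prefrontal cortex (mPFC) of 8 adult males of the inbred mouse strain C3H/HeN, hybridised singly to Agilent single-colour arrays. The MS group (n = 4) had undergone maternal separation from postnatal day 2 to postnatal day 14, a daily removal of the pups during which the dam was stressed in an unpredictable way. The Control group (n = 4) had been left undisturbed, and mice of both groups were weaned at postnatal day 21, worked for a palatable reward as adults and were fasted before they were killed. Mice are named by group and label number, as in Control 8.4. The number before the point is shared by 3 Control mice (8) and by 3 MS mice (7), and no source used here says what it means, so that p-values measure the spread between these mice whether or not they are littermates. The comparison addresses whether separation from the dam early in life is followed by altered expression of inhibitory synapse genes in the adult mPFC.

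GABA is the main inhibitory transmitter of the adult cortex. It is made from glutamate by glutamic acid decarboxylase in interneurons, packed into vesicles, and released onto GABA-A receptors, which are chloride channels assembled from several subunits, and onto GABA-B receptors, which act through G proteins. The effect of an open GABA-A channel depends on the chloride gradient, which is kept by an importer and an exporter of chloride in the receiving neuron.

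The level of a gene is given as its log2 signal minus the 75th percentile of the log2 signals on the same array, so that 0 is the 75th percentile and 1 unit is a doubling. Probes entered the test when the scanner software marked them as well above background in all 4 mice of either group, which held for 34097 probes and for 44 of the 47 probes of these genes. By its brightest probe, 27 of the 28 genes were tested. Gabrq, a GABA-A theta subunit gene, was not well above background on any of the 8 arrays, with levels of -8.38 to -5.88, and it is given no difference. Between 61.6% and 68.9% of the probes on an array were well above background, and no spot was saturated.

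The cortical identity of the tissue was checked against its markers. All 10 cortical excitatory markers were well above background on all 8 arrays, with Nrgn and Tbr1 the brightest. The summed linear signal of the 10 (in units of the array's 75th percentile) was 77.8 in Control 8.4 against 103 to 124 in the other 7 mice. Tbr1 itself was not low in Control 8.4 (4.32, against 4.02 to 4.55 in the other mice), while each other marker of the list was lowest there. Control 8.4 also stood apart in markers of the neighbouring striatum, of which 10 of 12 were well above background on all arrays. Their summed signal, led by Penk and Ppp1r1b, was 82.5 in Control 8.4 and 24.6 to 32.5 in the other mice. The corresponding sum of 12 olfactory bulb markers, led by Etv1 and Th, was 68.6 in Control 8.4, 36.8 in MS 7.6, 31.1 in Control 8.5 and 18.3 to 21.4 in the other 5. The striatal marker Isl1 was above background on 1 array and Drd2 on 7, and the bulb markers Eomes and Uncx on 4 and 6. Since Control 8.4 belongs to 1 group, differences of the genes examined here, by brightest probe, and of partner genes are given with and without it. MS 7.6 and Control 8.5, in which the bulb markers were also raised, remain in the values without Control 8.4. In whole tissue, fewer cells of a type and less RNA per cell cannot be told apart.

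No gene of the inhibitory synapse was called different between MS and Control. The adjusted p of each of the 27 genes was 0.9995 in the limma fit over all 34097 probes, of which 0 (0%) were called. At an unadjusted p of 0.05, 0 of 27 genes passed, where 814 of all probes did (2.39%). Likewise, 0 of 27 genes had groups that did not overlap, against 486 of all probes (1.43%). The mean was higher in MS for 13 genes and lower for 14 (8 and 19 in the log2 table normalised by the authors), with 54.9% of all probes higher, and the median difference was -0.01 for the genes and 0.01 for all probes. The 95% interval of the difference lay within 1.5-fold in either direction for 20 of the 27 genes (74.1%) and for 80.8% of all probes. With 4 arrays per group, changes within those intervals were not excluded.

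**Figure D1:**
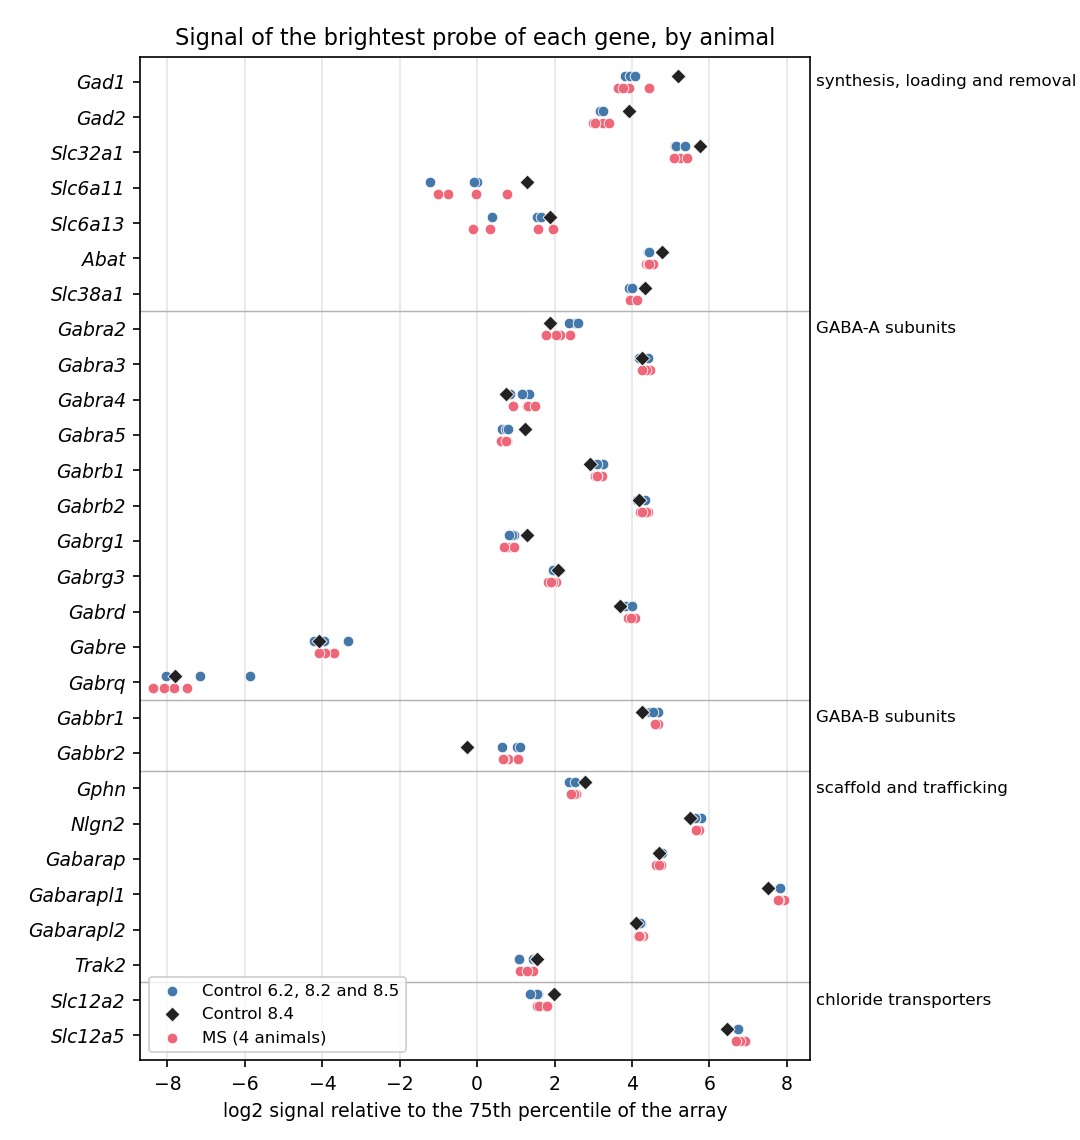
Log2 signal of the brightest probe of each of the 28 genes, relative to the 75th percentile of the array (horizontal axis), with 1 point per mouse, grouped by role. MS and Control points overlap in each gene, and Control 8.4 (black diamonds) lies outside the other mice in many of them, highest in 11 and lowest in 9 of the 28.

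By their brightest probes, the 7 genes of GABA synthesis, loading and removal each had a lower mean in MS. The median difference was -0.21, and 0 of 7 passed the unadjusted threshold. Without Control 8.4, the mean was lower in MS for 3 of the 7. Gad1 and Gad2, which encode the GAD67 and GAD65 forms of glutamic acid decarboxylase, and Slc32a1, which encodes the vesicular GABA transporter, mark GABA neurons. Their RefSeq promoter windows (assembly GRCm38.p6, 250 bases before to 50 after the transcript start, plus strand) are shown because the 3 genes varied together over the mice. Capitals mark matches, on either strand, to the TATA box letters TATAAA, the GC box letters GGGCGG and the CCAAT box letters CCAAT.
Gad1, chr2:70561879-70562178: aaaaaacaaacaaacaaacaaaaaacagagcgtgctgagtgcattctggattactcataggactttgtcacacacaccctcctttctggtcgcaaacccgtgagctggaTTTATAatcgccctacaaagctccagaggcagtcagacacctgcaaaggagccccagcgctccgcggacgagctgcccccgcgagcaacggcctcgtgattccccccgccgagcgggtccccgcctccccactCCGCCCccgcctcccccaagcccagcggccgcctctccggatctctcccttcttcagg
Gad2, chr2:22622077-22622376: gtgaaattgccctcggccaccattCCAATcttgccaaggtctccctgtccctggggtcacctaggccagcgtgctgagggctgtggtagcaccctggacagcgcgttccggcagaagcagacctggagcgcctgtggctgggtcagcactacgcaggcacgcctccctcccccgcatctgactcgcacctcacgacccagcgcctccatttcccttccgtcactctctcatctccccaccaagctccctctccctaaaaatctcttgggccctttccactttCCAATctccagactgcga
Slc32a1, chr2:158610508-158610807: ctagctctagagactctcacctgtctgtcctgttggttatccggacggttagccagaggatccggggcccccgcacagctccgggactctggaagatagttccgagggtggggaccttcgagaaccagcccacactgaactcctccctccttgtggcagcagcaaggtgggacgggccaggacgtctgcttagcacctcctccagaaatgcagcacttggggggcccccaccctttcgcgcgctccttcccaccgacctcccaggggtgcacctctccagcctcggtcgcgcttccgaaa
The Gad1 window held 1 TATAAA match and 1 GGGCGG match, the Gad2 window held 2 CCAAT matches, and the Slc32a1 window held no match to these letters. Among all 32851 promoter windows, TATAAA was found in 13.6%, GGGCGG in 35.7% and CCAAT in 37.4%. Windows were available for 24 of the 28 genes (31 windows, since some genes have several starts that can overlap). Of these 31, 12.9% held TATAAA, 58.1% GGGCGG and 38.7% CCAAT. The windows of the inhibitory synapse genes held a median of 14 CpG dinucleotides against 7 over all windows, and 21, 14 and 17 in Gad1, Gad2 and Slc32a1. The range over these genes was wide, from 0 in Gabra3 to 46 in Gabbr2.

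Gad1 was measured by a probe at chr2:70439699-70439758 (mm9, the build of the array annotation). Its level was 3.81, 3.94, 5.19 and 4.09 in Control 6.2, 8.2, 8.4 and 8.5, and 3.91, 3.65, 3.78 and 4.44 in MS 5.3, 7.1, 7.2 and 7.6. Control 8.4 was the highest of the 8 mice by 0.75, MS 7.6 came next and Control 8.5 followed, and the other 5 mice lay within 0.29 of each other. The mean was 4.26 ± 0.63 (SD, n = 4) in Control and 3.95 ± 0.35 (SD, n = 4) in MS, a difference of -0.31 with a 95% interval of -1.01 to 0.39. Without Control 8.4 the difference was 0.0005.

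Gad2 (probe at chr2:22549095-22549154, mm9) showed the same order of the leading mice. Its level was 3.16, 3.19, 3.92 and 3.26 in the Control mice, in the order above, and 3.24, 2.99, 3.04 and 3.42 in the MS mice. The difference was -0.21 (95% interval -0.62 to 0.20), and -0.03 without Control 8.4. Slc32a1 (chr2:158441324-158441383, mm9) was at 5.12, 5.15, 5.75 and 5.37 in Control and at 5.13, 5.24, 5.09 and 5.42 in MS, again led by Control 8.4, then MS 7.6, then Control 8.5. The difference was -0.12 (95% interval -0.46 to 0.22), and 0.01 without Control 8.4. A dimmer second Slc32a1 probe differed by 0.12 with all 8 mice. Control 8.4, MS 7.6 and Control 8.5 are the same 3 mice in which the summed olfactory bulb markers were highest. Without these mice, the differences of Gad1, Gad2 and Slc32a1 were -0.09, -0.08 and 0.02. The part of olfactory bulb cells in the Gad1, Gad2 and Slc32a1 levels was not tested. Over 11 interneuron markers, the mean log2 deviation of Control 8.4 was 0.01, within the range of -0.08 to 0.10 of the other mice. That mean joined opposite directions. Pvalb (2.61), Vip (1.12), Lamp5 (1.88), Cck (7.71) and Htr3a (-1.31) were each lowest of the 8 mice in Control 8.4. Calb2 (-0.63) and Npy (3.41) were highest there, and the remaining markers were neither. The summed linear signal of the 11 markers, most of which is that of Cck, was lowest in Control 8.4 (296, against 380 to 411).

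The ratio of the decarboxylases was compared within each mouse. Gad1 minus Gad2 was 0.65, 0.75, 1.27 and 0.83 in Control and 0.67, 0.66, 0.74 and 1.03 in MS. The group difference was -0.10, with p = 0.57 in an exact two-sided permutation test over 70 labellings, whose smallest possible p is 0.029. Adjusted over the 3 such partner comparisons made here, p was 0.91. Without Control 8.4 the difference was 0.03. Control 8.4 and MS 7.6, the mice with the highest levels of both genes, also had the highest ratio of Gad1 to Gad2.

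The transporters that clear GABA had the widest spread of the 27 genes. Slc6a11 encodes GAT3, a GABA transporter of astrocytes, and its level was -0.01, -1.22, 1.30 and -0.08 in Control and -0.75, -0.04, -1.002 and 0.78 in MS. It spanned 2.52 units over the 8 mice, again with Control 8.4 and MS 7.6 at the top. The difference was -0.25 (95% interval -1.49 to 0.99) and turned to 0.18 without Control 8.4. Over 8 astrocyte markers, the mean log2 deviation from the 8-mouse mean was also highest in Control 8.4 (0.32, against -0.14 to 0.05 in the other mice), while their summed linear signal, which is mostly that of Aldoc, was lowest there (227, against 250 to 289). The part of astrocyte RNA in the Slc6a11 level was not tested. Slc6a13 encodes GAT2, a GABA transporter known from the meninges and vessels. Its level was 1.55, 1.64, 1.88 and 0.40 in Control and -0.12, 1.58, 0.34 and 1.97 in MS, and it separated Control 8.5, MS 5.3 and MS 7.2 from the other 5 mice. The same 3 mice had the lowest sums of 8 leptomeningeal markers, led by Col1a2 and Dcn and well above background on all arrays: 5.32, 3.79 and 5.18, against 9.23 to 12.3 in the other 5. The sum ran from 5.32 to 11.0 in Control and from 3.79 to 12.3 in MS. The Slc6a13 difference was -0.42 (95% interval -1.56 to 0.71), the largest of the 27 in size with all 8 mice. It was -0.25 without Control 8.4, -0.07 without MS 5.3 and -0.77 without MS 7.6. Without Control 8.4, Control 8.5 and MS 7.6 together it was -0.99. The part of meningeal tissue in the Slc6a13 difference was not tested.

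Abat, the transaminase that breaks GABA down, lay between 4.35 and 4.54 in 7 mice and at 4.76 in Control 8.4, with a difference of -0.08 (95% interval -0.30 to 0.15) that turned to 0.004 without that mouse. Slc38a1, which encodes the SNAT1 glutamine transporter, differed by -0.11 (95% interval -0.37 to 0.15), and by -0.05 without Control 8.4. Its 3 probes lie at different places on the same annotated transcript, and their first 30 bases are shown because their differences did not share a sign.
Slc38a1, transcript base 2748, chr15:96406823-96406852, mm9, minus strand: tggaaacacgatcaacagttgtcttcactt
Slc38a1, transcript base 4354, chr15:96405217-96405246, mm9, minus strand: tgaccacctttgtagctctgtttgtactgt
Slc38a1, transcript base 6788, chr15:96402783-96402812, mm9, minus strand: gaatctatgcagcagaggctcactttagga
The probe at base 4354 was dim, with a mean level of -2.07. It read -1.99, -2.03, -1.999 and -1.82 in Control and -2.08, -2.17, -2.24 and -2.26 in MS, so that each MS mouse was below each Control mouse. Its difference was -0.23 (95% interval -0.41 to -0.04; limma unadjusted p = 0.021, adjusted p = 0.9995). The brightest probe, at base 2748, differed by -0.11 and the probe at base 6788 by 0.12, and their groups overlapped.

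**Figure D2:**
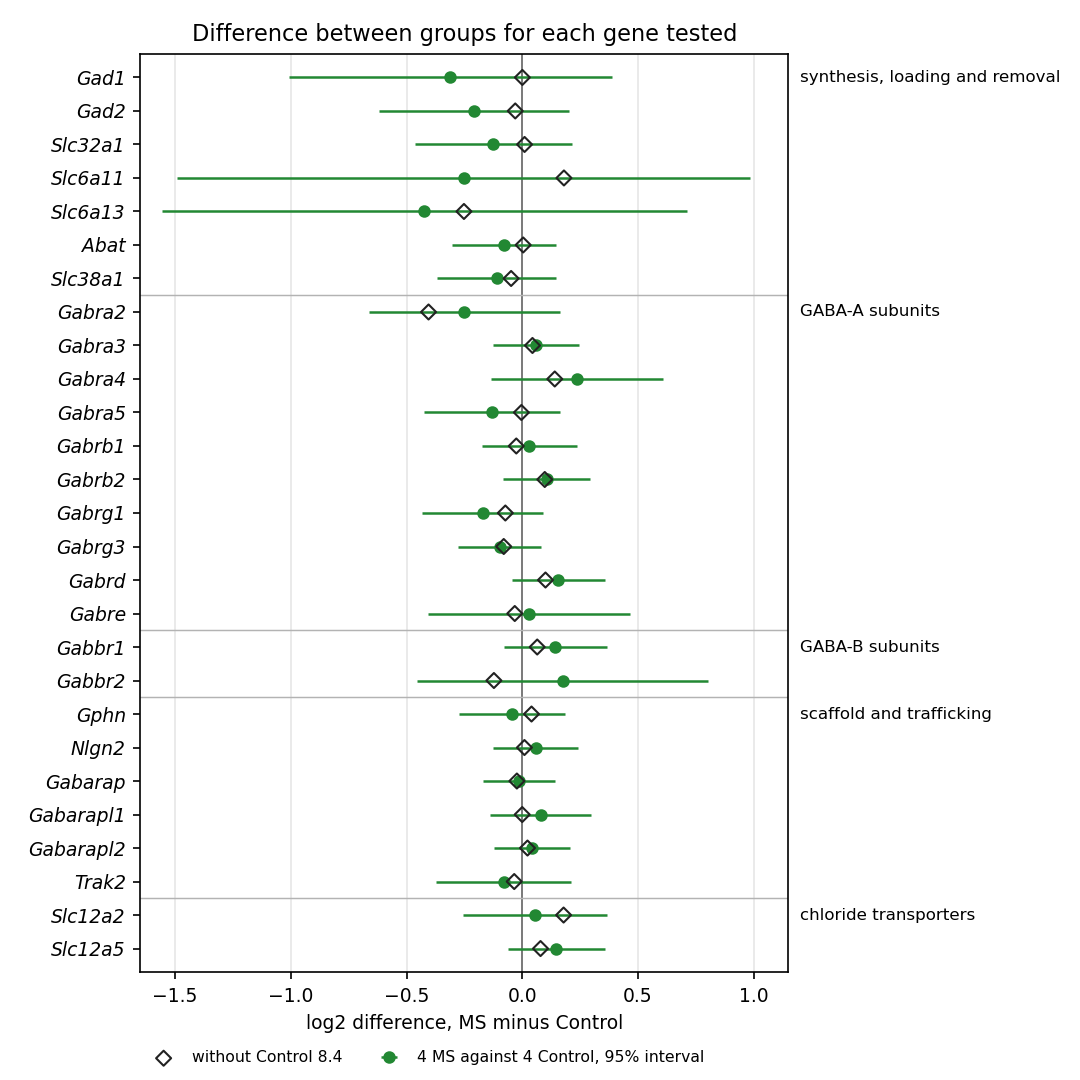
Difference in mean log2 signal, MS minus Control, for the 27 genes tested (green points, horizontal bars the 95% interval of the limma fit with 4 mice per group), and the same difference without Control 8.4 (open diamonds). Each bar crosses 0, and for Gad1 the point moves from -0.31 to 0.0005 when Control 8.4 is left out.

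Of the 11 GABA-A subunit genes, 10 were tested, 6 with a higher mean in MS and 4 with a lower one, and the median difference was 0.03. A GABA-A receptor is commonly assembled from alpha and beta subunits with 1 gamma or delta subunit. The order of probe signals is not an order of transcript amounts, because probes differ in how well they bind, but it was kept between groups. The brightest subunit probes were those of Gabra3 (alpha 3, 4.30 in Control and 4.36 in MS), Gabrb2 (beta 2, 4.21 and 4.31) and Gabrd (delta, 3.84 and 4.00), and Gabre (epsilon) was dim at -3.90 and -3.87. Over the 28 genes the mean levels of the groups had a Spearman rho of 0.993, and the lowest rho between any pair of mice was 0.938.

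Gabra2 encodes alpha 2, a subunit of synapses on the cell body and axon initial segment of principal neurons. Its level was 2.52, 2.38, 1.88 and 2.60 in Control and 2.40, 2.15, 2.05 and 1.78 in MS. The difference was -0.25 (95% interval -0.66 to 0.16), and -0.40 without Control 8.4 (limma unadjusted p = 0.024, adjusted p = 0.99996). It was the only 1 of 486 tests (27 genes in 18 alternative analyses) to fall under an unadjusted p of 0.05. Without Control 8.4, 2.15% of all probes fell under that threshold, and the Gabra2 groups overlapped there too. A second Gabra2 probe, placed 31 bases away on the genome, differed by 0.07.

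Gabra4 and Gabrd encode alpha 4 and delta, which are known to join in receptors outside the synapse that answer to ambient GABA. Both had higher means in MS. Gabra4 ran from 0.73 to 1.33 in Control and from 0.92 to 1.49 in MS (difference 0.24, 95% interval -0.14 to 0.61). Gabrd was at 3.88, 3.83, 3.68 and 3.99 in Control and at 3.91, 4.05, 4.07 and 3.97 in MS, a difference of 0.16 (95% interval -0.04 to 0.36; limma unadjusted p = 0.11, the smallest of the 27). Control 8.4 was the lowest of the 8 mice for both genes. Without it the differences were 0.14 and 0.10.

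Gabra5, which encodes alpha 5, a subunit of extrasynaptic receptors on dendrites, was at 1.24 in Control 8.4, with the other 7 mice between 0.61 and 0.79. Its difference was -0.13, and -0.004 without Control 8.4. Gabrg1 (gamma 1) was also highest in Control 8.4, at 1.29 against 0.69 to 0.95, with a difference of -0.17, and -0.07 without that mouse. Gabra3 differed by 0.06, Gabrb1 (beta 1) by 0.03, Gabrb2 by 0.11, Gabrg3 (gamma 3) by -0.10 and Gabre by 0.03. Without Control 8.4 these differences were 0.04, -0.03, 0.10, -0.08 and -0.03, so that those of Gabrb1 and Gabre changed sign. A dimmer second Gabra3 probe differed by -0.13 with all mice. Of 4 Gabrg3 probes, the dimmest, at chr7:64434940-64434999 (mm9), lay far from the others on the gene and differed by 0.31 (95% interval 0.03 to 0.58; limma unadjusted p = 0.032, adjusted p = 0.9995), while the other 3 differed by -0.23 to -0.10.

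Several subunit genes lie in clusters. On chromosome 5 (mm9), the probes of Gabrg1, Gabra2, Gabra4 and Gabrb1 started at 71143181, 71352275, 71961055 and 72528086, and their differences were -0.17, -0.25, 0.24 and 0.03, so that the cluster held both directions. Gabra5 and Gabrg3 on chromosome 7 differed by -0.13 and -0.10, and Gabra3 and Gabre on chromosome X by 0.06 and 0.03.

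The GABA-B receptor works as a pair of Gabbr1, the subunit that binds GABA, and Gabbr2, the subunit that couples to the G protein. Gabbr1 (chr17:37210986-37211045, mm9) was at 4.67, 4.48, 4.25 and 4.55 in Control and at 4.62, 4.65, 4.66 and 4.61 in MS. The MS mice lay within 0.06 of each other, inside the range of the Control mice. The difference was 0.14 (95% interval -0.08 to 0.36), the 2 other Gabbr1 probes differed by 0.25 and 0.18, and without Control 8.4 the brightest differed by 0.06.

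Gabbr2 (chr4:46677374-46677433, mm9) was at 1.03, 0.64, -0.26 and 1.1005 in Control and at 0.79, 1.05, 0.69 and 0.68 in MS. Control 8.4 was lower than the next mouse by 0.90. The difference of 0.17 (95% interval -0.46 to 0.80) turned to -0.12 without it. With all mice, the other Gabbr2 probes differed by -0.05 and 0.23. Gabbr1 minus Gabbr2 was 4.52 in Control 8.4 and 3.45 to 3.98 in the other 7 mice, and the group difference was -0.03 (exact two-sided permutation p = 0.91, adjusted p = 0.91 over the 3 partner comparisons). Without Control 8.4 it was 0.19.

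Of the 6 scaffold and trafficking genes, 3 had a higher mean in MS and 3 a lower one. Gephyrin, encoded by Gphn, is the lattice protein under inhibitory synapses, and Nlgn2, neuroligin 2, is the adhesion protein that recruits it. Gphn (chr12:79785608-79785667, mm9) was at 2.44, 2.36, 2.78 and 2.52 in Control and at 2.46, 2.54, 2.50 and 2.42 in MS, with a difference of -0.04 (95% interval -0.27 to 0.18) that turned to 0.04 without Control 8.4. Control 8.4 was the highest for Gphn and the lowest for Nlgn2, which ran from 5.49 to 5.78 in Control and from 5.66 to 5.74 in MS (difference 0.06, and 0.01 without Control 8.4). The 3 proteins of the GABARAP family, ubiquitin-like proteins of receptor traffic and autophagy, are encoded by Gabarap, Gabarapl1 and Gabarapl2. Gabarapl1 was the brightest of the 28 genes, between 7.78 and 7.93 in 7 mice and at 7.51 in Control 8.4, with a difference of 0.08 that fell to -0.0002 without Control 8.4. Gabarapl2 ran from 4.10 to 4.29 over the 8 mice and differed by 0.04, and by 0.02 without Control 8.4. Trak2, a kinesin adaptor that binds GABA-A receptors, differed by -0.08 (95% interval -0.37 to 0.21), and by -0.03 without Control 8.4.

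Gabarap spanned 0.14 units over the 8 mice by its brightest probe, the narrowest range of the 28 genes, and differed by -0.01 (95% interval -0.17 to 0.14), and by -0.02 without Control 8.4. Its 3 probes are shown by their first 30 bases for the same reason as those of Slc38a1.
Gabarap, transcript base 1013, chr11:69808343-69808372, mm9, plus strand: aatcccttcctttcactatcttctttttgg
Gabarap, transcript base 523, chr11:69806095-69806124, mm9, plus strand: tacttcttgatccggaagcgaattcatctc
Gabarap, transcript base 167, chr11:69804812-69804841, mm9, plus strand: taatttccgagaactgcagaactaaatctc
The probe at base 167, numbered on another annotated transcript than the other two, was dim and read -3.57, -3.30, -3.29 and -3.28 in Control and -3.11, -3.16, -3.26 and -3.10 in MS. Each MS mouse was above each Control mouse, by a difference of means of 0.20 (95% interval -0.003 to 0.40; limma unadjusted p = 0.053, adjusted p = 0.9995). The probe at base 523 differed by 0.12, with groups that overlapped. Over the 44 tested probes of the 28 genes, 2 (4.55%) passed the unadjusted threshold and 2 (4.55%) had groups that did not overlap, against 2.39% and 1.43% of all probes. Of 11 genes with more than 1 tested probe, the probes shared a sign in 4 and differed in 7.

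Both chloride transporters had a higher mean in MS. Slc12a2 encodes NKCC1, which brings chloride into the cell, and Slc12a5 encodes KCC2, the exporter of chloride in mature neurons. Slc12a2 was at 1.57, 1.55, 1.99 and 1.38 in Control and at 1.54, 1.76, 1.60 and 1.81 in MS (difference 0.06, 95% interval -0.26 to 0.37, and 0.18 without Control 8.4). Slc12a5 (chr2:164825109-164825168, mm9) was at 6.72, 6.73, 6.45 and 6.73 in Control and at 6.81, 6.92, 6.80 and 6.70 in MS (difference 0.15, 95% interval -0.06 to 0.36, and 0.08 without Control 8.4). A dimmer second Slc12a5 probe differed by 0.02 with all 8 mice. Control 8.4 was the highest of the 8 mice for the importer and the lowest for the exporter.

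Slc12a5 minus Slc12a2, a log ratio of exporter to importer signal, was 5.15, 5.18, 4.46 and 5.35 in Control and 5.28, 5.16, 5.20 and 4.89 in MS. The lowest values were those of Control 8.4 and MS 7.6. The group difference was 0.09 (exact two-sided permutation p = 0.77, adjusted p = 0.91 over the 3 partner comparisons), and it turned to -0.10 without Control 8.4.

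**Figure D3:**
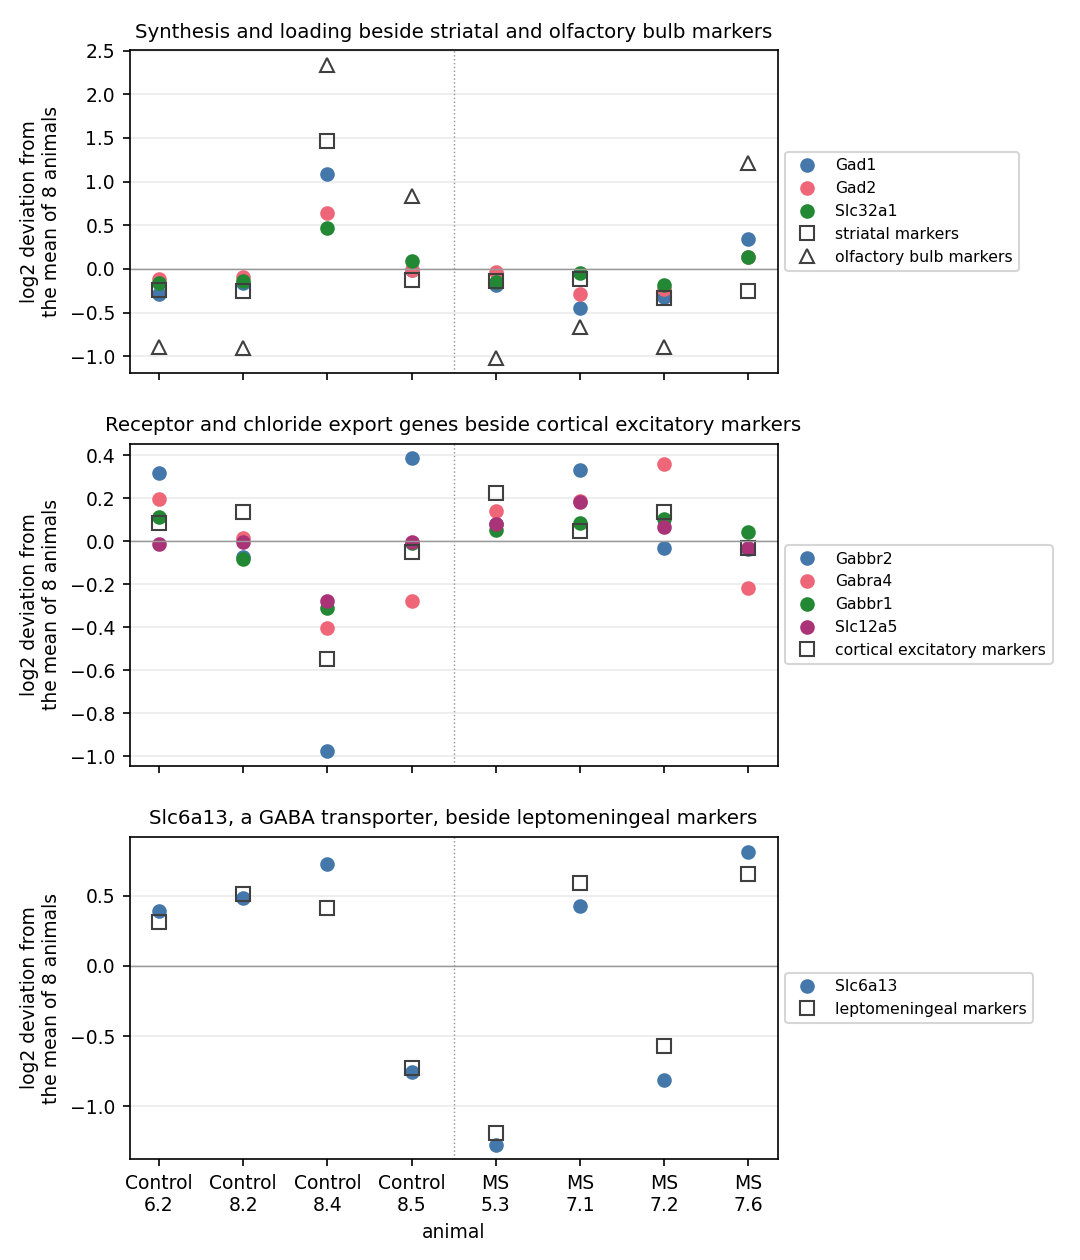
Log2 deviation of each mouse from the mean of 8 (vertical axis) for single genes (filled points) and for marker lists (open symbols, mean of the deviations of their genes), with Control mice on the left and MS mice on the right. Gad1, Gad2 and Slc32a1 are highest in Control 8.4, where both marker lists of the top panel are highest. The 4 genes of the middle panel are lowest in Control 8.4, as is the mean of the cortical excitatory markers. They are 4 of the 9 genes lowest in that mouse, and other receptor genes (Gabra5 and Gabrg1) are highest there. Slc6a13 is low in the same 3 mice as the leptomeningeal markers.

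The largest deviations from the common level were those of 1 mouse. Control 8.4 was the highest or lowest of the 8 mice in 20 of the 27 tested genes (74.1%), where it held that place for 51.0% of all 34097 probes. The share for the other 7 mice was 11.1% to 29.6% of these genes and 15.2% to 32.9% of all probes. The mean absolute deviation from the 8-mouse mean over the 28 genes was 0.37 in Control 8.4 and 0.14 to 0.20 in the others. The 11 genes in which Control 8.4 was the highest included 6 of the 7 for supply and clearance, all but Slc6a13, with Gabra5, Gabrg1, Gphn, Trak2 and Slc12a2. The 9 in which it was the lowest were Gabra4, Gabrb1, Gabrd, Gabbr1, Gabbr2, Gabarapl1, Gabarapl2, Nlgn2 and Slc12a5. Leaving out Control 8.4 turned the sign of the difference in 9 of the 27 genes, and the mean was then higher in MS for 14. Which share of these values goes with the high striatal and bulb markers and the low cortical excitatory markers of Control 8.4 was not tested.

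**Figure D4:**
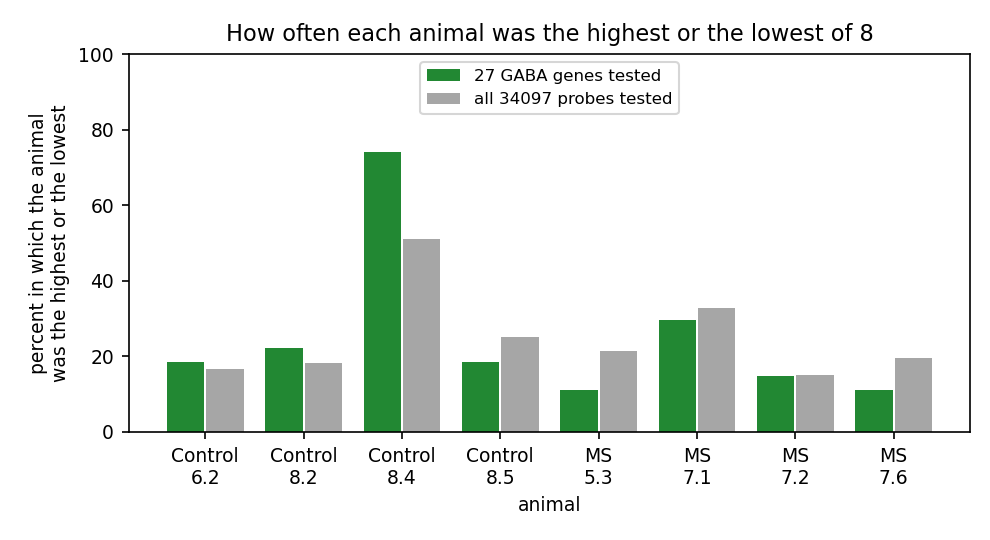
Share of genes or probes (percent, vertical axis) in which each mouse was the highest or the lowest of the 8, for the 27 inhibitory synapse genes tested (green) and all 34097 probes tested (grey). Control 8.4 holds 74.1% of the genes and 51.0% of the probes, and no other mouse exceeds 32.9%.

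The slide position did not separate the groups, since each of the 2 slide rows held 2 mice of each group. The difference had the same sign within both rows for 19 of the 27 genes and opposite signs for 8. The same share over all probes was not counted, so the 19 are not read as agreement between rows. Control 8.4 was in row 2, the row of the second value in each pair below. Within the rows, the Gad1 difference was -0.17 and -0.45, that of Gabra2 -0.28 and -0.22, and that of Gabrd 0.04 and 0.27, and with the row as a block 0 genes passed the unadjusted threshold.

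The wider pathway gave no called gene either. Of 43 related genes (synapse organisers, partners of the GABA-B receptor, GABA metabolism and glutamine supply, regulators of the chloride transporters and less common subunits), 41 were tested. The mean was higher in MS for 27 and lower for 14, the median difference was 0.05, and 0 passed the unadjusted threshold (2.39% of all probes did). Without Control 8.4, 0 of 41 passed as well (2.15% of all probes did). The single differences of related genes below are given with all 8 mice only. Among the higher genes with the smallest unadjusted p were Plcl2 (difference 0.23), which encodes a binding protein of the phospholipase C family, and Kcnj6 (0.14), a potassium channel opened through GABA-B receptors. Among the lower genes the smallest belonged to Aldh9a1 (-0.18), an enzyme of a minor route to GABA, to Mdga2 (-0.10), a binding partner of neuroligins, and to Hap1 (-0.08), a trafficking adaptor of GABA-A receptors. The limma unadjusted p was 0.056 for Plcl2 and 0.062 for Aldh9a1, with adjusted p = 0.9995 for both.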

How the data were processed

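Total RNA of the mPFC of 8 mice was labelled with Cy3 and hybridised to Agilent 8x60K arrays, 1 per mouse, on 1 slide. Spot intensity values were deposited by the authors as extracted with Agilent Feature Extraction 10.10.1.1, background-subtracted and detrended but not normalised between arrays. The authors also deposited a table of normalised log2 values for 34137 probes, used as an alternative. Of 62976 spots, 3671 control spots were left out. Spots flagged as outliers (0.25% to 0.30% per array) were left out only where an unflagged spot of the same probe remained, and were otherwise kept. The log2 processed signal minus the array's 75th percentile was tested with limma 3.58.1 in R 4.3.3 (lmFit and eBayes, two-sided, no covariate) on the probes well above background on all 4 arrays of a group, with Benjamini-Hochberg adjustment over 34097 probes. The fit was tested on simulated data. Of a gene's probes, that with the highest mean over the 8 arrays was used. Genes were named by the symbol in the array annotation. Partner differences were compared by exact permutation.

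The genes and lists were chosen with earlier results of these data known. The naming rule accounts for all 28 genes, takes values in each mouse for Gad1, Gad2, Slc32a1, Slc12a2, Slc12a5, Gabbr1, Gabbr2 and Gphn and for any gene under an unadjusted p of 0.05 or with separate groups, the 3 higher and 3 lower related genes with the smallest p, and the 2 brightest markers of a list with those at background. Values of further genes and probes were added after they were seen, and some genes under this rule are not reported here. Promoter windows came from RefSeq (GRCm38.p6); no coordinates were converted between builds. Plots used Python 3.11.15 and matplotlib 3.10.9.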

Additional observations from a re-analysis of the deposited data

Results flagged for a closer look

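In 6 of the 56 groups of 4 values formed by 28 genes in Control and MS, 1 mouse lay apart by Dixon's test at the 95% level. The groups come from the same 8 mice and are not independent, so no chance share can be set beside that count. Control 8.4, the highest or lowest mouse for 51.0% of all 34097 probes, was the outlying mouse in 4 of the 6. It had the highest Gad2 level of the Control group at 3.92, the highest Abat level at 4.76, the lowest Gabarapl1 level at 7.51 and the lowest Slc12a5 level at 6.45. MS 7.1 was the outlying mouse in the other 2, with the lowest Gabra5 level of the MS group at 0.61 and the highest Gabarapl1 level at 7.93.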

How the results depend on the processing

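No probe was called at an adjusted p of 0.05 in limma under any of the 18 alternatives, and the smallest adjusted p of any of the 27 genes over them was 0.88. At an unadjusted p of 0.05, 814 of 34097 probes passed in the main analysis. After normexp correction 422 of 34097 passed, and with the mean of a gene's probes 535 of 23463 genes. When 1 mouse was left out, the count ran from 539 of 34111 (without MS 7.2) to 1646 of 34802 (without Control 8.2). Without MS 5.3 it was 1294 of 34213. Of the genes examined, 0 to 1 passed with 1 mouse left out (Gabra2 without Control 8.4, where 2.15% of all probes passed). With 1 mouse left out, 0 to 2 genes had separate groups. They were Gabbr1 and Nlgn2 without Control 6.2 (3.66% of all probes had them), and Gabrd and Trak2 without Control 8.5 (3.35%). The others were Gabrg3 without MS 5.3 (5.14%), Gabrb2 without Control 8.2 (6.32%) and Slc12a5 without MS 7.6 (3.83%). Separate groups were found for 1 gene (Gabarap, lower, with 1.55% of all probes) in the authors' log2 table and for 4 genes without Control 8.4, Control 8.5 and MS 7.6, where 12% of all probes had them. In the authors' table the mean was higher in MS for 8 of 27 genes against 13, with 51.5% of all probes higher. Of the related genes, 1 passed with quantile normalisation, 1 with median scaling, 1 after normexp and 2 in the authors' table (Plcl2 and Aldh9a1), and 0 to 2 with 1 mouse left out. Gabbr1 minus Gabbr2 turned to 0.076 with the mean of a gene's probes and to 0.060 without the 3 mice, and ran from -0.17 to 0.19 with 1 mouse left out. Slc12a5 minus Slc12a2 then ran from -0.10 to 0.20 and Gad1 minus Gad2 from -0.19 to 0.031, with the sign turned without Control 8.4. Of the 486 single-gene values, 4 moved by more than 1 SD, and 11 of the 27 genes kept their sign throughout. The cause was not tested. No paired analysis was possible because the groups share no replicate numbers. With 4 arrays per group, intervals for Gad1, Slc6a11 and Slc6a13 exceeded 2-fold, and signal over background limits Gabrq and Gabre.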
